A study of Mus musculus with 12 samples.

Results

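The 10 genes described here encode blood coagulation factors and inhibitors of coagulation. They are prothrombin (F2), the factors V, VII, IX, X, XI and XII (F5, F7, F9, F10, F11 and F12), the B chain of factor XIII (F13b), antithrombin (Serpinc1) and protein C (Proc). They were chosen by name as genes of 1 pathway, and each matched 1 row by its symbol, so that 10 of the 35275 genes in the deposited table were followed in all 12 libraries. All 10 passed the filter on low values, a mean of at least 0.5 FPKM (fragments scaled to gene length and to library depth).

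Coagulation is a chain of plasma proteases that activate each other until thrombin turns fibrinogen into fibrin. Factor VIIa starts it with tissue factor, factors XII, XI and IX carry the contact route, factor Xa with its cofactor factor V makes thrombin, and factor XIII crosslinks the clot. Antithrombin and activated protein C restrain it. Hepatocytes are the main source of nearly all of these proteins, and HNF4A, a nuclear receptor of hepatocytes, is known to bind the promoters of several of their genes.

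The samples were given as mouse liver, and their RNA was sequenced in 4 groups of 3 libraries that the series text calls biological replicates. KO HFD and KO chow are liver knockouts of Hnf4a fed a high fat diet or vivarium chow. WT HFD and WT chow are wild-type mice on the same diets. The sources used here give no strain, age, sex, feeding time or promoter that drove the deletion.

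Per library, 15705198 to 20311768 reads fell on genes. The targeted gene, Hnf4a, overlapped in level between the libraries labelled KO and WT. It stood at 98.8 to 158 FPKM in the 6 libraries labelled KO, at 116 to 133 FPKM in WT HFD and at 126, 75.8 and 0.0973 FPKM in WT chow 1, 2 and 3. These are levels of the whole gene, with no value per exon, so a deletion of some exons could not be checked. KO and WT are therefore used below only as the names on the labels. Of the 12 libraries, 3 stood apart. WT chow 3 held 24.8 FPKM summed over 9 hepatocyte markers, against 53880 to 85860 FPKM in the 10 libraries other than WT chow 2 and 3, and 13035 FPKM over 8 markers of brown fat and adipocytes, against 6.92 to 70.9 FPKM. WT chow 2 held 29477 FPKM over the hepatocyte markers and 120.5 FPKM over the fat markers. KO HFD 1 had the lowest hepatocyte sum of the 10 libraries. Results are therefore given with all 12 libraries and with the 10 left without WT chow 2 and 3. KO HFD 1 stayed in both and is left out in turn where it moves a value.

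Within the 10 libraries the most abundant of these transcripts kept a fixed order on the FPKM scale, which is per gene length. Serpinc1 (chromosome 1, 160978606 to 161003010, plus strand), the main inhibitor of thrombin and factor Xa, was the highest at 1062 ± 120 FPKM (SD over 10 libraries). F2 (chromosome 2, 91625320 to 91636414, minus strand), the precursor of thrombin, followed at 618 ± 33.3 FPKM. Proc (chromosome 18, 32123129 to 32139570, minus strand), whose activated protein cleaves the factors Va and VIIIa, came next at 431 ± 52.3 FPKM. The ranges of neighbours did not overlap from Serpinc1 to F2, from F2 to Proc and from Proc to F12. F12 (chromosome 13, 55417958 to 55426793, minus strand), which starts the contact route, stood at 281 ± 39.0 FPKM. F10 (chromosome 8, 13037308 to 13056676, plus strand), which encodes the precursor of the protease that cleaves prothrombin, stood at 265 ± 37.6 FPKM. F12 exceeded F10 in 8 of 10 libraries, and their ranges overlapped.

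The other 5 genes formed a lower tier, below F10 in 10 of 10 libraries with F13b at its top. F13b (chromosome 1, 139501707 to 139523756, plus strand), the carrier subunit of factor XIII, stood at 83.5 ± 19.6 FPKM. F7 (chromosome 8, 13026034 to 13035809, plus strand), the factor that pairs with tissue factor, stood at 74.3 ± 11.8 FPKM. F9 (chromosome X, 59999464 to 60030759, plus strand), the factor missing in haemophilia B, stood at 65.7 ± 12.3 FPKM. Neighbours in this tier overlapped in range. F5 (chromosome 1, 164151838 to 164220277, plus strand), the cofactor of factor Xa, stood at 55.3 ± 15.9 FPKM. F11 (chromosome 8, 45241170 to 45262031, minus strand), which activates factor IX, stood at 38.2 ± 8.68 FPKM. F13b exceeded F7 in 7 of 10 libraries, F7 exceeded F9 in 5, F9 exceeded F5 in 8 and F5 exceeded F11 in 9, so this tier had no fixed order. Relative spread was larger in the lower tier, with coefficients of variation over the 10 libraries of 15.9% to 28.7%, against 5.38% to 14.2% for the 5 genes of the upper tier. F2 varied least, with a highest library 1.17 times the lowest, and F5 varied most, with 3.02 times. The coordinates were taken from the table (GRCm38, mm10), which annotates all 10 genes as protein-coding. F5 overlaps a long noncoding gene on the other strand, Gm16548, listed at 1.48 to 4.39 FPKM in the 10 libraries, and Serpinc1 overlaps Zbtb37, listed at 0.628 to 1.31 FPKM. The sources used here give no strand setting for the counting, so reads in these overlaps cannot be told apart.

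Because Hnf4a is the gene named in the knockout label, the promoters were searched for letters of an HNF4 motif, CAAAGNNCA, on both strands. RefSeq promoters on GRCm38.p6, 250 bases before to 50 bases after the start, were matched for 9 of the 10 genes. The HNF4 letters were found in 3 of the 9, Serpinc1, F7 and F9, against 6.36% of the 32851 promoters in the same table. All 3 promoters with HNF4 letters are shown, with the matched bases in capitals. They lie on the plus strand at chr1:160978333-160978632 (Serpinc1), chr8:13025784-13026083 (F7) and chrX:59999214-59999513 (F9).
Serpinc1 promoter: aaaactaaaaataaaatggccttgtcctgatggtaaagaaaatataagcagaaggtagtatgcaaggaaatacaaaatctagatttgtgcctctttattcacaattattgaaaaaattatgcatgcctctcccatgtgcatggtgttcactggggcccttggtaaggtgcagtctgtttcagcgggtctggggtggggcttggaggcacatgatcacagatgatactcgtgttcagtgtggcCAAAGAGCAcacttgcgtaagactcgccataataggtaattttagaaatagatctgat
F7 promoter: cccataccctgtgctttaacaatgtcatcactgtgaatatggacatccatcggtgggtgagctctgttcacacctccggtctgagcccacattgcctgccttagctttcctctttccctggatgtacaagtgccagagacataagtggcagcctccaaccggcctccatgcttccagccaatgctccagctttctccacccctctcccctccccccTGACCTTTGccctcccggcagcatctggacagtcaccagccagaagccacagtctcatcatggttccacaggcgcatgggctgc
F9 promoter: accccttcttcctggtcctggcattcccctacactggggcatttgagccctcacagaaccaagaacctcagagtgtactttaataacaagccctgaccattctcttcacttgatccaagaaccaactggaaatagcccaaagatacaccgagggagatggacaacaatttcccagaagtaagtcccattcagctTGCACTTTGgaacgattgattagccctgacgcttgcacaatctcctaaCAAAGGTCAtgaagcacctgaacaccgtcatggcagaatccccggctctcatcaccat
The match of Serpinc1, CAAAGAGCA, lies on the plus strand and begins at position -8 from the RefSeq start. F7 carries TGACCTTTG, a match on the minus strand, at position -34. F9 carries a plus-strand match, CAAAGGTCA, at position -8 and a minus-strand match, TGCACTTTG, at position -56. A match describes the letters in the window and does not show binding, and no match says only that these letters are not in this window.

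The initiating factor and the vitamin K-dependent proteases of the common route are given first, library by library, each group in the order of its replicates 1, 2 and 3. F7 stood at 81.3, 65.5 and 89.5 FPKM in KO HFD, 67.3, 68.8 and 67.1 FPKM in KO chow, 81.6, 82.3 and 52.5 FPKM in WT HFD, and 87.6, 48.9 and 0.0652 FPKM in WT chow. KO HFD, KO chow and WT HFD overlapped, and the lowest of the 10 libraries was WT HFD 3. F10 stood at 265, 233 and 349 FPKM in KO HFD, 299, 213 and 255 FPKM in KO chow, 261, 246 and 251 FPKM in WT HFD, and 275, 313 and 0.242 FPKM in WT chow. F10 in WT chow 2 lay inside the range of the 9 libraries left without WT chow 2, WT chow 3 and KO HFD 1. F2 stood at 582, 568 and 662 FPKM in KO HFD, 653, 619 and 579 FPKM in KO chow, 650.0, 630.2 and 608 FPKM in WT HFD, and 632, 857 and 0.249 FPKM in WT chow. WT chow 2 was the highest of the 12 libraries for F2, and the 4 groups otherwise overlapped.

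The inhibitors were, like F2, highest in WT chow 2. Serpinc1 stood at 1345, 909 and 1006 FPKM in KO HFD, 1131, 1135 and 1049 FPKM in KO chow, 1025, 996 and 974 FPKM in WT HFD, and 1052, 1886 and 0.871 FPKM in WT chow. WT chow 2 was the highest and KO HFD 1 the second highest of the 12 libraries. Proc stood at 445, 434 and 484 FPKM in KO HFD, 447, 346 and 378 FPKM in KO chow, 523, 455 and 411 FPKM in WT HFD, and 390.1, 659 and 0.155 FPKM in WT chow. Both inhibitors overlapped between KO HFD and WT HFD and between KO HFD and KO chow.

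The contact and intrinsic factors were low in both WT chow 2 and WT chow 3. F12 stood at 179, 279 and 320.4 FPKM in KO HFD, 303, 283 and 277 FPKM in KO chow, 313, 271 and 290.1 FPKM in WT HFD, and 290.2, 4.09 and 0.124 FPKM in WT chow. KO HFD 1 was the lowest of the 10 libraries for F12, and the other 9 lay between 271 and 320.4 FPKM. F11 stood at 28.8, 44.3 and 27.7 FPKM in KO HFD, 27.0, 48.2 and 31.9 FPKM in KO chow, 38.6, 43.3 and 49.8 FPKM in WT HFD, and 42.1, 2.36 and 0 FPKM in WT chow. WT chow 3 held no read of F11, where 3 reads, taken as the floor for counting error only, equal 0.0810 FPKM. F9 stood at 40.4, 73.7 and 61.0 FPKM in KO HFD, 70.5, 75.4 and 67.8 FPKM in KO chow, 51.2, 71.6 and 81.8 FPKM in WT HFD, and 63.6, 2.91 and 0.0665 FPKM in WT chow. For F9, too, the lowest of the 10 libraries was KO HFD 1.

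The cofactor and the carrier subunit differed most between libraries. F5 stood at 28.2, 50.7 and 38.1 FPKM in KO HFD, 65.6, 85.2 and 51.9 FPKM in KO chow, 59.2, 59.3 and 66.6 FPKM in WT HFD, and 48.1, 1.43 and 0.196 FPKM in WT chow. All 3 KO HFD values lay below all KO chow and all WT HFD values, with KO HFD 2 just under KO chow 3. F13b stood at 40.3, 89.9 and 58.0 FPKM in KO HFD, 97.5, 99.9 and 92.9 FPKM in KO chow, 85.3, 101.9 and 85.7 FPKM in WT HFD, and 83.7, 0.156 and 0.0255 FPKM in WT chow. KO HFD 1 and 3 were the lowest of the 10 libraries for F13b, and KO HFD 2 lay among the WT HFD values.

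**Figure D1:**
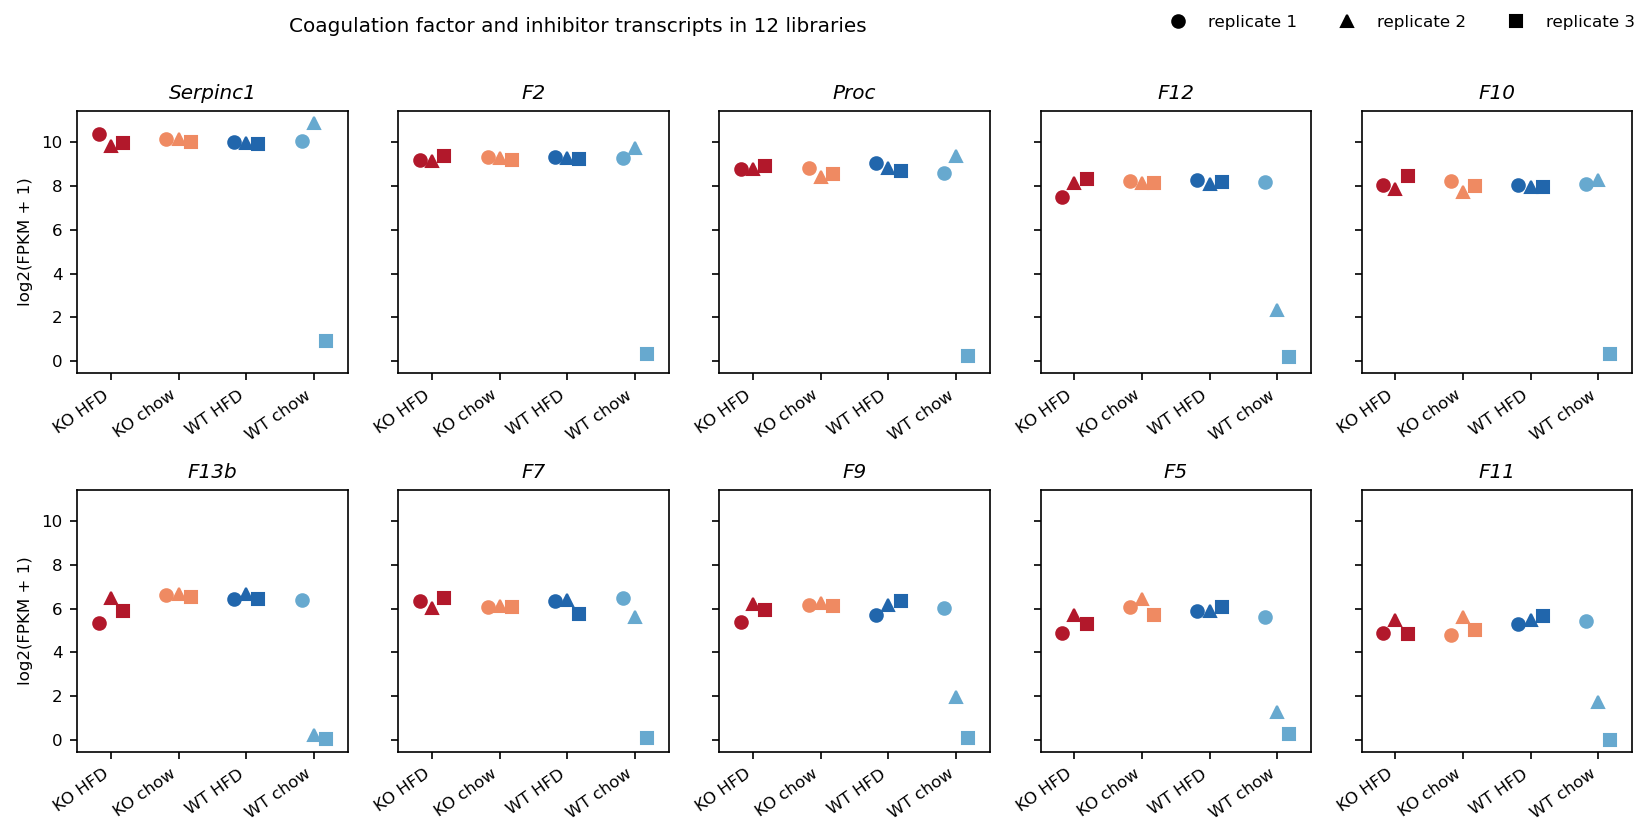
Transcript level of each of the 10 genes as log2(FPKM + 1), by group from KO HFD at the left to WT chow at the right, with 1 point per library and the marker giving its replicate number. WT chow 3 is near 0 in every panel, WT chow 2 is near 0 for F13b but the highest library for Serpinc1, F2 and Proc, and the 10 other libraries lie close together.

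On chow, the labels compare the knockout with the wild type. With 12 libraries, limma on log2(FPKM + 1) with Benjamini-Hochberg adjustment called 0 of the 10 genes and 0 of the 12251 genes tested (0%). In that fit 5 of the 10 genes and 2584 of all genes had an unadjusted p under 0.05, and limma-voom on reads recovered from the FPKM also called 0 of the 10. The differences, KO chow minus WT chow on the log2(FPKM + 1) scale, ran from 2.04 for F7 (SE 1.25) to 4.61 for F12 (SE 1.50), with adjusted p from 0.195 to 0.409. Their median was 2.82, against 0.08 over all genes. F5, F9 and F13b did not overlap between the groups, KO chow the higher, as was the case for 12.4% of all genes, and 0 of the 10 were lower without overlap, against 4.43%. The differences of F5, F9, F11, F12 and F13b rest on WT chow 2 and 3. Those of F2, F7, F10, Serpinc1 and Proc rest on WT chow 3. Without WT chow 3 alone they stood at -0.26 (F2), 0.05 (F7), -0.21 (F10), -0.35 (Serpinc1) and -0.39 (Proc). Without WT chow 1, the limma fit called F5, F9, F11, F12 and F13b, 5 of the 10, and 24.3% of all genes. Without both WT chow 2 and 3 it called 0 of the 10 and 0.0168% of 11870 genes. That fit had 0 of the 10 and 325 of all genes at an unadjusted p under 0.05, and limma-voom called 0 of the 10. All 10 genes in WT chow 1 lay within the range of the 9 libraries of the other groups. In bulk RNA, the level of a single gene cannot tell fewer hepatocytes in a sample from less of its transcript per hepatocyte. In WT chow 2 the 10 genes did not move together, with F13b at 0.174% and Serpinc1 at 184% of a median. That median is over the libraries left without WT chow 2, WT chow 3 and KO HFD 1. The part of either was not tested.

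The comparison of the diets in wild-type mice shares those WT chow libraries. With 12 libraries limma called 0 of the 10 genes and 0% of all genes, 5 of the 10 and 1807 of all genes had an unadjusted p under 0.05, and limma-voom called 0 of the 10. The differences, WT HFD minus WT chow, ran from 2.10 for F7 (SE 1.25) to 4.62 for F12 (SE 1.50), with adjusted p from 0.307 to 0.501 in limma, and their median was 2.97 against 0.02 over all genes. F5 and F13b were higher in WT HFD without overlap, against 6.82% of all genes, and 0 were lower without overlap, against 4.35%. Leaving out WT chow 1 gave 5 calls of the 10 here as well, and 19.9% of all genes. With 10 libraries limma called 0 of the 10 and 0.0253% of genes, with 0 of the 10 and 284 of all genes at an unadjusted p under 0.05, and limma-voom called 0 of the 10.

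On the high fat diet, F5 and F13b were lower by mean in KO HFD than in WT HFD, and the 95% intervals of the other 8 genes included 0. In the fit with 10 libraries limma called 0 of the 10 genes, against 0.202% of all genes, 2 of the 10 and 1513 of all genes had an unadjusted p under 0.05, and limma-voom called 0 of the 10. The fit with 12 libraries also called 0, against 0.155% of all genes, with 0 of the 10 and 156 of all genes at an unadjusted p under 0.05. F5 averaged 39.0 ± 11.3 FPKM in KO HFD and 61.7 ± 4.21 FPKM in WT HFD (SD, n = 3 each). Its difference was -0.69 on the log2(FPKM + 1) scale (SE 0.23, 95% interval -1.20 to -0.17, limma adjusted p = 0.360), a ratio of 0.622 in FPKM + 1. F5 was the 1 gene of the 10 without overlap in this comparison, KO HFD the lower in 3 of 3 libraries, as were 12.4% of all genes, and 0 were higher without overlap, against 7.37%. F13b averaged 62.8 ± 25.1 FPKM in KO HFD and 91.0 ± 9.51 FPKM in WT HFD, a difference of -0.60 (SE 0.25, 95% interval -1.15 to -0.05, limma adjusted p = 0.377). The F13b difference was -0.32 without KO HFD 1 and -0.89 without KO HFD 2.

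The inhibitors and prothrombin had the smallest differences of the 10 between KO HFD and WT HFD. Serpinc1 differed by 0.10 (95% interval -0.31 to 0.52), Proc by -0.02 (95% interval -0.39 to 0.35) and F2 by -0.06 (95% interval -0.40 to 0.27), with limma adjusted p from 0.836 to 0.963. The signs of Serpinc1 and Proc turned under other scalings, Serpinc1 to -0.02 under TPM and -0.17 under quantile normalization, and Proc to 0.03 under median-of-ratios. F7 and F10 each differed by 0.14, and F10 stood at -0.07 under quantile normalization. The contact and intrinsic factors had negative differences, F11 -0.40 (95% interval -0.94 to 0.14), F9 -0.24 and F12 -0.21, with limma adjusted p from 0.494 to 0.685. Without KO HFD 1, F9 stood at 0.0028 and F12 at 0.040. The median of the 10 genes was -0.13, against -0.03 over all genes.

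Within the knockouts, the diets could be compared in 3 against 3 libraries that all held hepatocyte transcripts, and F5 and F13b again had the largest differences of the 10, lower by mean in KO HFD. KO HFD is also the group of the preceding comparison, so the pair of comparisons is not independent. In the fit with 10 libraries limma called 0 of the 10 genes, against 8.65% of all genes, 2 of the 10 and 3556 of all genes had an unadjusted p under 0.05, and limma-voom called 0 of the 10. By direction, 1.8% of all genes were called higher and 6.85% lower in KO HFD. The fit with 12 libraries called 0 of the 10 and 0.155% of all genes, with 0 of the 10 and 924 of all genes at an unadjusted p under 0.05.

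F5 averaged 39.0 ± 11.3 FPKM in KO HFD and 67.6 ± 16.7 FPKM in KO chow (SD, n = 3 each). Its difference on the log2(FPKM + 1) scale was -0.79 (SE 0.23, 95% interval -1.31 to -0.27, limma adjusted p = 0.0605), a ratio of 0.579 in FPKM + 1 with an interval of 0.405 to 0.829. F13b averaged 62.8 ± 25.1 FPKM in KO HFD and 96.8 ± 3.59 FPKM in KO chow, a difference of -0.69 (SE 0.25, 95% interval -1.24 to -0.14, limma adjusted p = 0.0953). Both genes lay lower in KO HFD in 3 of 3 libraries without overlap, as did 21.6% of all genes, and 0 of the 10 lay higher without overlap, against 9.98%. Both crossed the threshold after scaling to TPM, F5 at -0.99 (limma adjusted p = 0.0291) and F13b at -0.89 (limma adjusted p = 0.0408), where the median of all genes moved to -0.22 and 2206 genes were called. Leaving out single libraries also moved the calls. Without KO HFD 2 both passed (limma adjusted p = 0.0455 for F5 and 0.0355 for F13b), with 5.2% of all genes called. Without KO chow 3 F5 passed (limma adjusted p = 0.0375), with 13.5% of all genes called. Neither gene passed when any other library was left out. Among these was KO HFD 1, without which the differences shrank to -0.58 for F5 and -0.42 for F13b.

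The other 8 genes had smaller differences between KO HFD and KO chow. F9 differed by -0.32, F12 by -0.19 and F11 by -0.08, with limma adjusted p from 0.389 to 0.865. F9 and F12 had their lowest value in KO HFD 1, and without that library F9 stood at -0.084 and F12 at 0.057. Among the inhibitors, Proc differed by 0.23 (limma adjusted p = 0.392) and Serpinc1 by -0.04 (limma adjusted p = 0.901). Of the proteases of the initiating and common route, F7 differed by 0.20, F10 by 0.14 and F2 by -0.03, with limma adjusted p from 0.522 to 0.906. F2, F10, F11, Serpinc1 and Proc each turned sign under at least 1 other scaling, so no direction is given for them. The median of the 10 genes was -0.06, against -0.07 over all genes.

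**Figure D2:**
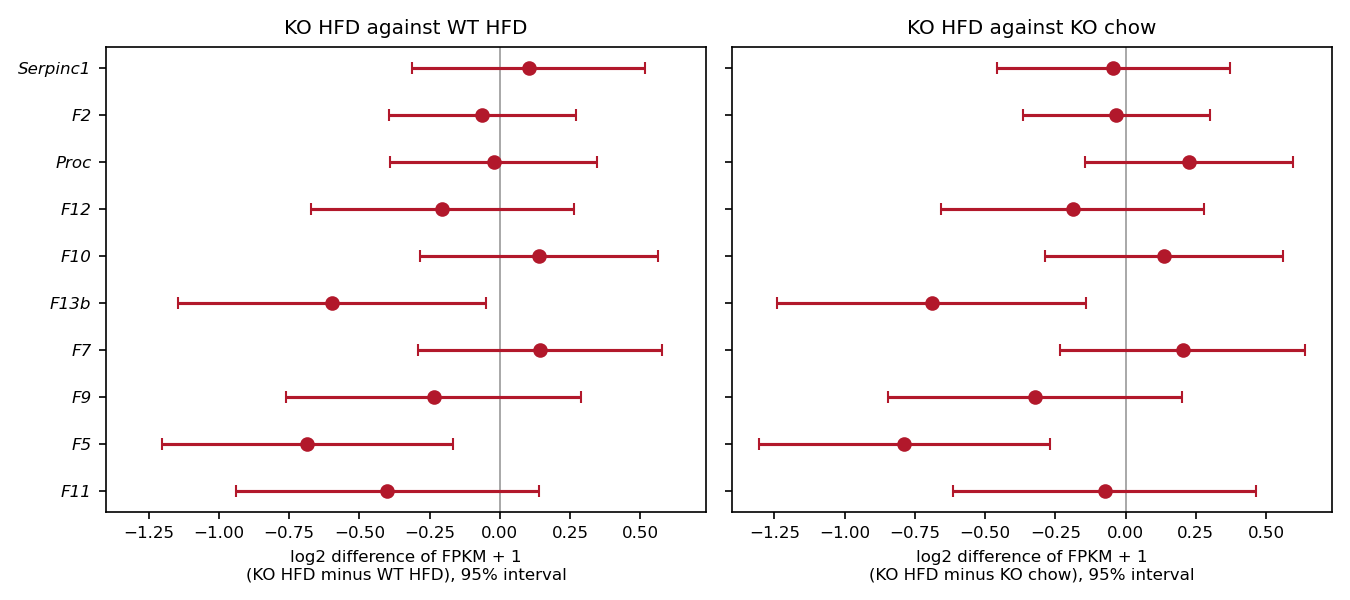
Difference of each gene in log2(FPKM + 1), KO HFD minus WT HFD at the left and KO HFD minus KO chow at the right, from the limma fit with 10 libraries; points are estimates and bars are 95% intervals without adjustment for multiple genes. F5 and F13b have intervals below 0 in both panels, from -1.31 to -0.27 for F5 against KO chow, and the intervals of the other 8 genes include 0.

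Other transcripts moved with the KO HFD group. Markers of exocrine pancreas (8 of 8 in the table) summed to 45.2 to 78.0 FPKM in KO HFD, the highest in KO HFD 1, against 0.357 to 0.736 FPKM in KO chow and 0.481 to 0.733 FPKM in WT HFD. Markers of heart and skeletal muscle (8 of 8) summed to 0.319 to 0.484 FPKM in KO HFD, with the defining Myl2, Myl3 and Myh6 at 0, against 7.23 to 30.7 FPKM in KO chow and 8.81 to 83.4 FPKM in WT HFD. The hepatocyte sum was 53880 to 77011 FPKM in KO HFD, 60293 to 64946 FPKM in KO chow and 78610 to 85860 FPKM in WT HFD. The part of these differences in the values of F5 and F13b was not tested.

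The interaction of genotype and diet, the KO minus WT difference on HFD minus that on chow, was negative by estimate for all 10 genes with 12 libraries. It ran from -4.99 for F13b (SE 1.86) to -1.89 for F7 (SE 1.77), with limma adjusted p from 0.289 to 0.586, and the signs of F2, F7, F10, Serpinc1 and Proc turned without WT chow 3. limma called 0 of the 10 genes, against 0.122% of all genes, 4 of the 10 and 2038 of all genes had an unadjusted p under 0.05, and limma-voom called 0. With 10 libraries limma and limma-voom again called 0 of the 10, against 0.0842% of all genes by limma, with 1 of the 10 and 1225 of all genes at an unadjusted p under 0.05. That 1 gene was F5 at -1.14 (SE 0.40, limma adjusted p = 0.457). F13b stood at -0.80 (SE 0.43, limma adjusted p = 0.525).

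In the WT chow 2 library, F13b, F12, F5, F9 and F11 were nearly absent. There F7 was present at a lower level than elsewhere, and F10, F2, Proc and Serpinc1 were present at their level elsewhere or above it. This library was compared with the median of the 9 libraries left without WT chow 2, WT chow 3 and KO HFD 1. F13b was at 0.174% of that median, on 7 reads, F12 at 1.41% on 151 reads, F5 at 2.41% on 200 reads, F9 at 4.13% on 150 reads and F11 at 5.62% on 100 reads. F7 was at 71.1% of it and lay below all 9. F10 at 123%, F2 at 136%, Proc at 152% and Serpinc1 at 184% were above it, on 14769 to 76658 reads. Of the 10 genes, 5 were under 10% of the median, as were 563 of the 10159 genes with a median of at least 1 FPKM (5.54%). By range, 6 of the 10 lay below all 9 and 3 above all 9, against 38.0% and 34.9% of the 10159 genes. In WT chow 3, all 10 were under 10%, as were 1118 of the 10159 genes, and none had more than 31 reads. This contrast among the genes lies within 1 library and has no replicate.

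**Figure D3:**
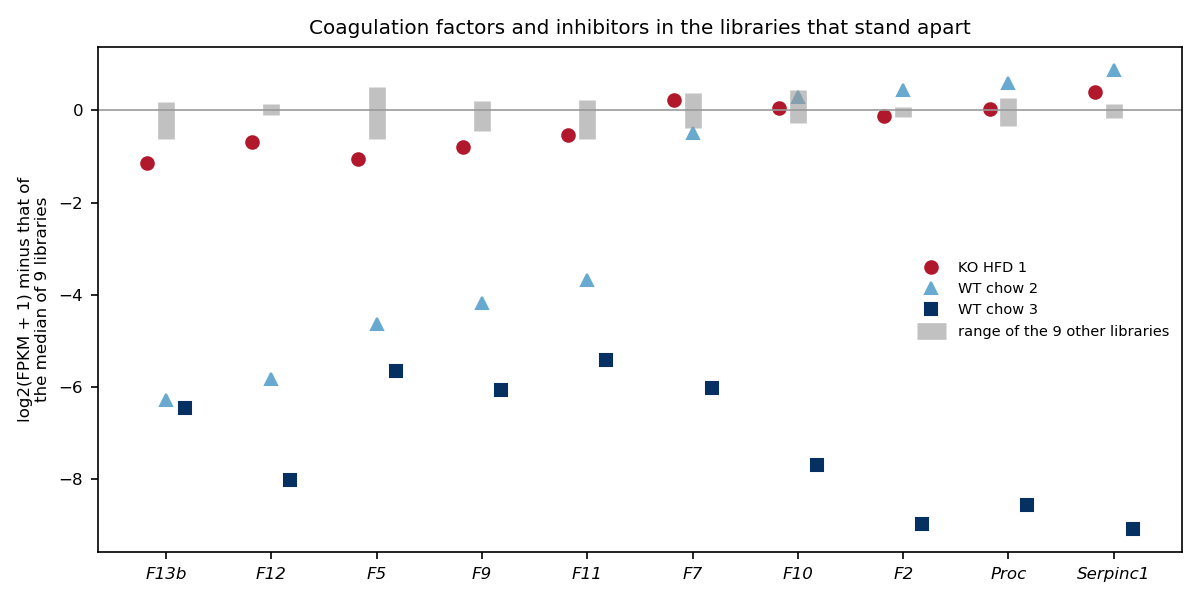
Level of each gene in KO HFD 1 (circles), WT chow 2 (triangles) and WT chow 3 (squares) as log2(FPKM + 1) minus that of the median of the 9 other libraries, with grey bars for the range of those 9. WT chow 2 is far below the bars for F13b, F12, F5, F9 and F11 and above them for F2, Proc and Serpinc1, and WT chow 3 is far below them for all 10.

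Genes that lie side by side differed in this library. F10 ends 4231 bases before Proz, which encodes protein Z, on the plus strand of chromosome 8, and the ratio of F10 to Proz FPKM was 442 in WT chow 2 against 1.64 to 3.38 in the 9 libraries. F11 and Klkb1, which encodes plasma prekallikrein, lie 7410 bases apart on the minus strand of the same chromosome, and the ratio of F11 to Klkb1 was 0.124 in WT chow 2 against 1.83 to 6.70. F7 and F10 are 1498 bases apart, and their ratio was 0.156 in WT chow 2 against 0.210 to 0.334. Proz and Klkb1 were named after their values were seen.

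KO HFD 1 was low in most of the genes that were nearly lost from WT chow 2. Of those 5, F13b (44.8% of the median of the 9 libraries), F5 (47.6%), F9 (57.4%) and F12 (61.8%) lay below all 9, and F11 (68.4%) lay within their range. The other 5 genes stood at 92.3% to 131% in KO HFD 1, and Serpinc1 at 131% was above all 9. Over all 10159 genes, 13.5% lay below all 9 in KO HFD 1 and 30.8% above. WT chow 2 and KO HFD 1 were set against the same 9 libraries, so a low or high median enters both. In WT chow 2 the markers of platelets and megakaryocytes summed to 10.9 FPKM, against 1.45 to 4.25 FPKM in the 9 libraries. The defining Itga2b at 6.96 FPKM and Pf4 at 2.99 FPKM lay above all 9. The defining Ppbp at 0.344 FPKM lay within their range. Markers of stellate cells (6 of 6 in the table) summed to 31.5 FPKM in WT chow 2, against 48.8 to 89.3 FPKM in the 9. The defining Dcn was at 6.58 FPKM and Lrat at 0.268 FPKM in WT chow 2. The defining Des went the other way, at 13.8 FPKM against 1.10 to 6.06 FPKM in the 9. The part of these markers was not tested.

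Of the list of 35 other haemostasis genes, 33 were tested with 10 libraries and 32 with 12, and limma and limma-voom called 0 of them in either direction in all 5 comparisons of both fits. The largest number at an unadjusted p under 0.05 was 8, for KO chow against WT chow with 12 libraries, against 2584 of the 12251 genes tested. For KO HFD against KO chow with 10 libraries, the smallest adjusted p of the list was that of Lman1, the cargo receptor that carries factor V out of the endoplasmic reticulum, with a difference of -0.55 (limma adjusted p = 0.0617). Ggcx, the carboxylase of the vitamin K-dependent factors, differed by -0.59 (limma adjusted p = 0.0716). Of the 24 with a median of at least 1 FPKM, 16 lay below all 9 libraries in WT chow 2, against 38.0% of all 10159 genes, and 4 were under 10% of the median, against 5.54%. These 4 were Proz (0.582%), Tfpi2 (1.42%), an inhibitor of plasmin and other proteases, Hrg (1.82%), which encodes the plasma histidine-rich glycoprotein, and F3 (8.57%), which encodes tissue factor. The fibrinogen chains Fga (98.7%), Fgb (131%) and Fgg (103%) were near or above it, as were Klkb1 (173%) and Habp2 (230%), which encodes a hyaluronan-binding protease. In KO HFD 1, 8 of the 24 lay below all 9 and 2 above. Of the 4 under 10% of the median in WT chow 2, Proz (40.0%) and Hrg (55.5%) were among the 8, and Tfpi2 (56.2%) and F3 (60.4%) lay within the range. The rest of the 8 were Serpinf2, the plasmin inhibitor (56.6%), Vkorc1l1 (64.7%), Pros1 (69.9%), Lman1 (70.0%), Kng1 (82.0%) and Serping1 (86.7%). In WT chow 2, Serpinf2 was at 10.7% of the median. Genes of this list other than the fibrinogen chains were named after their values were seen.

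**Figure D4:**
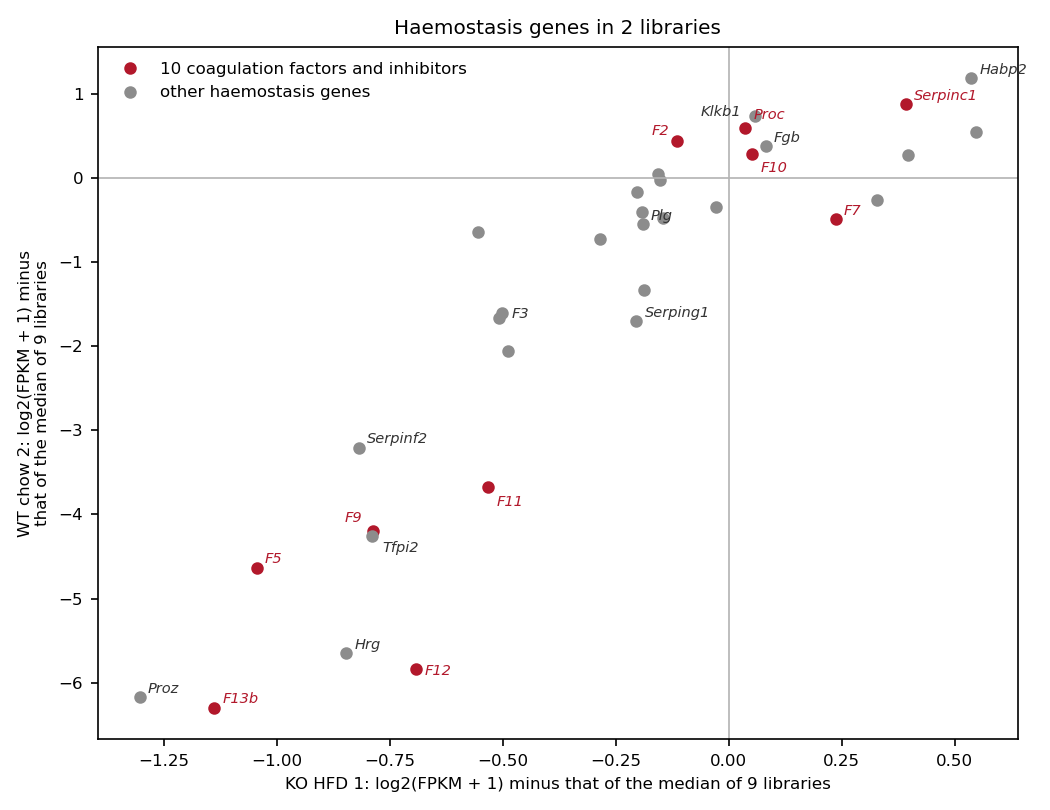
Each of the 10 genes (red) and of the other haemostasis genes with a median of at least 1 FPKM (grey), with KO HFD 1 on the horizontal and WT chow 2 on the vertical axis, both as log2(FPKM + 1) minus that of the same median of 9 libraries. F13b, F5, F12, F9, Proz, Hrg and Tfpi2 lie at the lower left and Serpinc1 and Habp2 at the upper right; both axes share the median, and no correlation is given.

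Of 12 liver transcription factors, limma and limma-voom called 0 in the 5 comparisons with 12 libraries and in both KO HFD comparisons with 10. The largest number at an unadjusted p under 0.05 in limma was 8, for KO chow against WT chow with 12 libraries, against 2584 of the 12251 genes tested. In WT chow 2, 9 of the 12 lay below all 9 libraries, as did 38.0% of the 10159 genes. Hnf4a was at 58.4% of the median, Cebpa, an activator of hepatocyte genes, at 31.7%, Nr1h4, the bile acid receptor, at 13.6% and Onecut1 at 8.91%. These factors were named after their values were seen, and their part in the levels of the coagulation genes was not tested.

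Summed over the 10 genes, the transcripts came to 3035, 2748 and 3096 FPKM in KO HFD, 3161, 2973 and 2851 FPKM in KO chow, 3089, 2957 and 2871 FPKM in WT HFD, and 2964, 3775 and 1.99 FPKM in WT chow. The groups overlapped without WT chow 2 and 3. As a share of all FPKM in a library, the sum was 0.474%, 0.445% and 0.497% in KO HFD, 0.587%, 0.566% and 0.490% in KO chow, and 0.526%, 0.511% and 0.509% in WT HFD. On this scale KO HFD lay below WT HFD without overlap. Every KO HFD library had a larger FPKM total (at least 617994) than any WT HFD library (at most 587312). Under TPM, which also divides by that total, the median difference of all genes moved from -0.03 to -0.13 for this comparison. The direction was therefore shared by the median gene. On FPKM, 12.4% of all genes lay lower without overlap, and this percentage was not counted under TPM. WT chow 2 had the highest FPKM sum of the 12 although it had nearly lost 5 of the genes, since Serpinc1, F2 and Proc make up most of the sum. WT chow 2 also had the highest total FPKM, 692229. As a share, its sum was 0.545%, below those of KO chow 1 and 2. The shares of WT chow 1 and 3 were 0.507% and 0.000332%. Genes outside these lists whose level over the 10 libraries was most like the mean of the 10 genes were Gm4788 (r = 0.969), Dpp4 (r = 0.958), a peptidase of the cell surface, Uroc1 (r = 0.955), an enzyme of histidine breakdown, Slc31a1 (r = 0.951), a copper transporter, and Aldh8a1 (r = 0.949). They were picked for this value among 9836 protein-coding genes, the libraries share the low KO HFD 1, and r is given as a description.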

How the data were processed

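The authors deposited FPKM for 35275 genes in 12 libraries, beside each gene's length, position and type. The submitters' processing notes name the tools HTSeq 0.6.1, STAR, TopHat, CASAVA and DESeq2 (as 2), and the builds mm10 and GRCm38. The sources used here give neither the aligner behind these values nor the annotation, strand setting or filters. Of the 10 genes, 6 have the start and end of GENCODE vM21 and 4 do not.

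After multiplication by gene length, 99.996% of the FPKM values were whole multiples of the smallest one in their library (tolerance 0.1 read), and these multiples were taken as reads. FPKM on the log2(FPKM + 1) scale, which understates changes of low genes, was tested in R 4.3.3 with limma 3.58.1, using a trended empirical Bayes fit, for genes with a mean of at least 0.5 FPKM over the libraries fitted: 12251 genes with 12 libraries and 11870 with 10. Each fit had 4 group means and 5 contrasts, with Benjamini-Hochberg adjustment over all tested genes and a threshold of 0.05. With 10 libraries WT chow has 1 library, taken to vary as much as those of the other groups. The fitting code was checked on reads simulated for KO HFD and WT HFD only, with no library that stood apart. That check does not give the error rate of the fits with 4 groups. Figures were drawn with matplotlib 3.10.9 (Python 3.11.15).

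Alternatives were a pseudocount of 0.1, no filter, TPM, median-of-ratios and quantile scaling, only the groups compared, a replicate block, leaving out each library, and limma-voom on these reads. In the order KO against WT on chow, KO against WT on HFD, diet in WT, diet in KO, and interaction, limma-voom called 0, 15, 0, 12 and 0 genes with 12 libraries and 1, 23, 2, 1308 and 3 with 10.

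All 10 genes are named. Other haemostasis genes were to be named where past the threshold, up to 8 per comparison, with the fibrinogen chains. The 5 genes most alike were the protein-coding genes with the highest Pearson r over the 10 libraries at a mean of at least 1 FPKM. Promoters printed are those with HNF4 letters. Some listed items are not reported here. The genes, lists and rules were chosen with earlier results of these data known.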

Additional observations from a re-analysis of the deposited data

Results flagged for a closer look

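By estimate, F5 had opposite differences between the genotypes on the 2 diets. On the high fat diet all 3 KO libraries lay below all 3 WT libraries, as did 12.4% of all genes. On chow all 3 KO libraries lay above all 3 WT libraries, as did also 12.4% of all genes. The interaction, the KO minus WT difference on HFD minus that on chow, was -4.37 on the log2(FPKM + 1) scale with 12 libraries (SE 1.47, limma adjusted p = 0.289). With 10 libraries it was -1.14 (SE 0.40, limma adjusted p = 0.457). Of the WT chow values of F5, 1.43 and 0.196 FPKM are those of WT chow 2 and 3. These libraries held 29477 and 24.8 FPKM over the hepatocyte markers, against 53880 to 85860 FPKM in the 10 other libraries.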

How the results depend on the processing

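None of the 10 genes passed the threshold in any of the 5 comparisons with 12 or 10 libraries, and this count stayed 0 under every alternative named below except TPM scaling, which gave 2 (F5 and F13b) for KO HFD against KO chow with 10 libraries, and some fits that left out 1 library. Leaving out 1 library gave 0 to 5 genes for KO chow against WT chow, for WT HFD against WT chow and for the interaction with 12 libraries, the 5 without WT chow 1, and 0 to 2 for KO HFD against KO chow with 10 libraries. The alternatives were a pseudocount of 0.1, no filter, TPM, median-of-ratios and quantile scaling, only the 2 groups compared (12 libraries), a replicate block and limma-voom. The differences of F5 and F13b kept their sign under all of these and without each library in turn in the comparisons run for them, which were those with WT chow and the interaction with 12 libraries, and both KO HFD comparisons and the interaction with 10 libraries. With 10 libraries, the sign turned for KO HFD against WT HFD in Serpinc1 (TPM -0.018, quantile -0.17), Proc (median-of-ratios 0.028) and F10 (quantile -0.072), and for KO HFD against KO chow in F10 (TPM -0.057, quantile -0.12), F2 (median-of-ratios 0.094), F11 (median-of-ratios 0.049), Serpinc1 (median-of-ratios 0.083) and Proc (quantile -0.10). The cause was not tested.

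Leaving out 1 of 12 libraries, the difference ran over the following ranges where it turned sign. For KO chow against WT chow it ran from -0.26 to 4.46 (F2), -0.21 to 3.78 (F10), -0.35 to 4.64 (Serpinc1) and -0.39 to 4.19 (Proc). For WT HFD against WT chow it ran from -0.23 to 4.49 (F2), -0.21 to 3.78 (F10), -0.50 to 4.49 (Serpinc1) and -0.14 to 4.44 (Proc). For the interaction it ran from -4.52 to 0.19 (F2), -3.09 to 0.095 (F7), -3.64 to 0.35 (F10), -4.54 to 0.45 (Serpinc1) and -4.22 to 0.36 (Proc). Each of these signs turned without WT chow 3. Leaving out 1 of 10 libraries, KO HFD against WT HFD ran from -0.068 to 0.27 (F7), -0.43 to 0.0028 (F9), -0.023 to 0.27 (F10), -0.38 to 0.040 (F12), -0.062 to 0.22 (Serpinc1) and -0.10 to 0.069 (Proc). KO HFD against KO chow ran from -0.10 to 0.010 (F2), -0.027 to 0.26 (F10), -0.29 to 0.16 (F11), -0.36 to 0.057 (F12) and -0.21 to 0.075 (Serpinc1).

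TPM scaling moved the median of all genes to -0.13 for KO HFD against WT HFD and -0.22 for KO HFD against KO chow. The number of all genes called for KO HFD against KO chow with 10 libraries was 1027, against 120 without the filter, 2206 under TPM, 613 under quantile scaling and 366 with the replicate block. Whether the replicate numbers pair the libraries was not settled. Deviations of libraries with the same number correlated at -0.19 to 0.131, and libraries with different numbers were not set beside them. The block gave 0 of the 10 genes in every comparison. In WT chow 3, counts of 0 to 31 reads limit the precision of every level.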
